A study of Rattus norvegicus with 6 samples.

Results

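The miRNAs of the genes rno-miR-532, rno-miR-188, rno-miR-362, rno-miR-501, rno-miR-3560 and rno-miR-500 were examined in rat primary sertoli cells, the somatic cells that nourish germ cells in the seminiferous tubule. The members were chosen by name, as every mature miRNA that carries one of 7 names, and 11 of the 734 mature miRNAs in the deposited counts were found under 6 of these names. The seventh name, miR-660, was not analysed here. Small RNA libraries were made at 24 h from 3 control samples, cultured without 4-nonylphenol (4-NP), an alkylphenol with estrogen-like action, and from 3 samples cultured with 0.5 mM of it. The cells of both groups were enriched from testes of 5- to 10-day-old Sprague-Dawley rats and passaged in culture in medium with fetal bovine serum. The labels do not say whether the 3 samples of a group came from separate cultures, so the p-values measure the spread between these samples, which may be technical.

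A miRNA gene is transcribed as a longer RNA, from which a hairpin is cut and then trimmed to short mature strands, named 5p and 3p for the arm of the hairpin they come from. Bases 2 to 8 of the mature strand, the seed, pair with target mRNAs, so miRNAs with the same seed can share targets. The genes examined here form a cluster known to lie in an intron of Clcn5, which encodes a chloride and proton exchanger of endosomes, and many miRNAs of the X chromosome are expressed in the testis. In the RefSeq annotation of the rat assembly GRCr8, all 6 hairpins lie on chromosome X inside the span of Clcn5, in the order miR-532, miR-188, miR-362, miR-3560, miR-501 and miR-500. Of these, 5 are on the strand of Clcn5, and miR-3560 is on the opposite strand. The assembly behind the counts is not given in the sources used here, so no coordinates are printed.

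Mature sequences from RefSeq (GRCr8) matched 10 of the 11 members, all but miR-362-5p. They are 20 to 24 bases long and hold 9 distinct seeds. The 7 sequences printed here, 5′ to 3′ with the seed in capitals, belong to the most abundant members and to members compared below.
miR-532-5p: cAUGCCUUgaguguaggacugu
miR-188-5p: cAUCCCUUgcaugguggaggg
miR-532-3p: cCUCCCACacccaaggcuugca
miR-188-3p: cUCCCACAugcaggguuugc
miR-500-3p: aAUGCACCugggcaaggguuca
miR-501-3p: aAUGCACCcgggcaaggauuugg
miR-3560: cAAAUCCUugcccgggugcauu
miR-500-3p and miR-501-3p were the only members of the 10 with a common seed, AUGCACC, and they are equal at 18 of 22 bases counted from the first. The 3p strands of miR-532 and miR-188 share a run of 8 bases, CUCCCACA, which starts at a different base in each, so their seeds differ. The reverse complement of miR-3560 equals the first 22 bases of miR-501-3p. Reads of these names come from opposite strands of the same positions, and their sum is therefore given as well.

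The libraries had 20023200 to 23426742 reads on mature miRNAs, of which miR-21-5p took 62.0 to 63.9%. Levels are given as CPM, the reads of a miRNA per 1000000 mature miRNA reads of the same sample, and 3 reads, taken as the limit of detection, corresponded to 0.128 to 0.150 CPM. As reads and not molecules were counted, this limit and the confidence intervals given here cover counting error only. The gonadal somatic miR-202 strands summed to 807 to 1195 CPM untreated and 698 to 796 CPM after 4-NP, without overlap. Summed levels of miRNAs that mark other cells did not overlap between the groups for the smooth muscle or myoid, endothelial and erythroid lists, and overlapped for the myeloid and meiotic germ cell lists. They were 120596 to 136273 CPM untreated and 88389 to 96697 CPM after 4-NP for the 4 smooth muscle or myoid strands, and 6325 to 7615 CPM and 3234 to 3805 CPM for the 2 endothelial strands. The 4 erythroid miRNAs summed to 11.0 to 40.7 CPM and 59.3 to 631 CPM, the 3 myeloid strands to 8.05 to 10.5 CPM and 8.36 to 14.1 CPM, and the 5 meiotic germ cell strands to 150 to 167 CPM and 162 to 197 CPM. Among the tested strands edgeR called 2 of 4 smooth muscle or myoid and 2 of 2 endothelial strands lower, 1 of 2 erythroid and 4 of 5 germ cell strands higher, and 0 of 3 myeloid and 0 of 2 gonadal strands in either direction. Over all tested miRNAs, 7.47% were called higher and 12.8% lower. The remaining germ cell strand, miR-449a-5p, held most reads of its list and had a log2 fold change of -0.25 (edgeR adjusted p = 0.247). In the myeloid list miR-223-3p had 1.12, while miR-142-3p had -0.67 and miR-142-5p had -0.37. Each listed strand had reads in at least 1 sample, while miR-202-3p was at 0 in 4-NP sample 3, and miR-144-5p was at 0 in 4 of the 6 samples. Their part in the results was not tested, and in these bulk samples fewer cells of a type and less RNA per cell cannot be told apart.

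The cluster was a minor part of the miRNA pool. Its 11 members held 5449, 5581 and 5681 reads in control samples 1, 2 and 3, and 7224, 5452 and 6339 reads in 4-NP samples 1, 2 and 3. Scaled to depth, these sums were 233, 242 and 255 CPM untreated and 326, 272 and 290 CPM after 4-NP. In CPM the sum was higher in every treated sample than in any control, 243 ± 11.2 CPM against 296 ± 27.7 CPM (SD, n = 3 each). After the TMM scaling used in the tests below, the groups overlapped, as 4-NP sample 2 fell below control sample 3. The sum was not tested. In control sample 1 the cluster took 0.0233% of the mature miRNA reads, with a 95% Wilson interval of 0.0227 to 0.0239%.

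The members differed widely in level. In the controls the order of mean levels was miR-532-5p, miR-500-3p, miR-188-5p, miR-532-3p, miR-362-5p and miR-362-3p, and each of these stood above the next in all control samples. In the controls the range of miR-3560 overlapped those of miR-188-3p and miR-501-3p, and miR-188-3p stood above miR-501-3p in all control samples. The ranges overlapped too for miR-500-5p and miR-501-5p below them. The 3 leading members, miR-532-5p, miR-500-3p and miR-188-5p, made up 88.0 ± 0.941% of the cluster's reads untreated and 87.6 ± 1.00% with 4-NP (SD, n = 3 each). After 4-NP the first 6 places of the order of means were the same, but miR-188-5p and miR-532-3p overlapped, as did miR-362-5p and miR-362-3p, and miR-188-3p moved from place 7 to place 9. The mature strands are of like length. The order is one of reads, since ligation to adapters differs in efficiency between small RNAs.

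To examine whether 4-NP changed these miRNAs, counts of all mature miRNAs were compared with edgeR's quasi-likelihood F test, with TMM scaling and Benjamini-Hochberg adjustment over the 549 miRNAs that passed a filter on low counts. Of the 11 members, 10 passed the filter, all but miR-501-5p. miR-500-3p was the only member with an adjusted p under 0.05, so 1 of 10 tested members was called higher and 0 were called lower, whereas 7.47% of all tested miRNAs were called higher and 12.8% lower (20.2% in either direction). The members' share of calls was near that background. At an unadjusted p under 0.05 there were 4 of 10 members (miR-500-3p, miR-500-5p, miR-3560 and miR-188-3p), against 35.7% of all tested miRNAs in either direction. DESeq2 and limma also called 1 member higher and 0 lower. At the study's thresholds, a fold change over 2 or under 0.5 with an unadjusted p under 0.05, 0 members passed in edgeR, and 0 in DESeq2 and limma, against 5.83% of all miRNAs higher and 9.84% lower in edgeR. Without control sample 3 there were 2 members higher, and without 4-NP sample 3 there was 1 lower. The median log2 fold change was 0.43 over the 10 tested members and -0.02 over all 549.

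miR-500-3p, a strand of the last hairpin of the cluster, rose after 4-NP. It had 59.2, 62.3 and 68.5 CPM in control samples 1, 2 and 3 and 107.9, 89.6 and 96.9 CPM in 4-NP samples 1, 2 and 3. The groups did not overlap, and the lowest treated sample stood above the highest control. The means were 63.4 ± 4.71 CPM and 98.1 ± 9.17 CPM (SD, n = 3 each). With TMM scaling the edgeR fit gave a 1.52-fold rise, which is 0.61 ± 0.15 on the log2 scale (SE, edgeR quasi-likelihood test, adjusted p = 0.0297). It was 0.53 to 0.75 in the 14 alternative fits, but the call was lost in 4 of the 6 fits that omitted 1 sample. The adjusted p in edgeR was 0.0217 without control sample 3 and 0.0472 without 4-NP sample 2, and it was 0.0936, 0.0945, 0.0518 and 0.0919 without control samples 1 and 2 and 4-NP samples 1 and 3.

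The other strand of this hairpin, miR-500-5p, had few reads, with 10, 12 and 14 reads untreated and 23, 18 and 22 reads after 4-NP. Its groups did not overlap either, at 0.525 ± 0.101 CPM and 0.981 ± 0.0731 CPM (SD, n = 3 each). The log2 fold change was 0.88 ± 0.30 (SE, edgeR adjusted p = 0.0873), which did not pass the test.

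miR-532-5p, the most abundant member, had 118, 127 and 124 CPM in control samples 1, 2 and 3 and 154, 138 and 135 CPM in 4-NP samples 1, 2 and 3. All treated samples stood above all controls, but by little, with means of 123.3 ± 4.47 CPM and 142 ± 10.5 CPM (SD, n = 3 each). The log2 fold change of 0.19 ± 0.12 (SE, edgeR adjusted p = 0.307) did not pass the test. miR-532-3p had 14.8, 12.7 and 11.8 CPM untreated and 16.8, 15.2 and 19.1 CPM after 4-NP, with a log2 fold change of 0.36 ± 0.18 (SE, edgeR adjusted p = 0.2). Its groups did not overlap in CPM but did so after TMM scaling.

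The strands of miR-188, the hairpin next to miR-532 on the chromosome, lay in the other direction. miR-188-5p had 24.5, 24.5 and 32.9 CPM in control samples 1, 2 and 3 and 23.4, 13.7 and 18.7 CPM in 4-NP samples 1, 2 and 3. The groups did not overlap, although 4-NP sample 1 was close to the lower controls. The means were 27.3 ± 4.86 CPM and 18.6 ± 4.81 CPM (SD, n = 3 each), and the fold change on the log2 scale was -0.59 ± 0.24 (SE, edgeR adjusted p = 0.14). miR-188-3p had 42, 43 and 37 reads untreated and 26, 12 and 27 reads after 4-NP, or 1.77 ± 0.103 CPM and 1.00 ± 0.350 CPM (SD, n = 3 each), with no overlap. Its log2 fold change was -0.83 ± 0.32 (SE, edgeR adjusted p = 0.114). Neither strand passed the test, and neither did in any of the 14 alternative fits, where the adjusted p was 0.0911 to 0.328 for miR-188-5p and 0.0654 to 0.256 for miR-188-3p.

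Of the 10 tested members, 5 were higher in CPM in every treated sample than in any control (miR-500-3p, miR-500-5p, miR-532-5p, miR-532-3p and miR-3560), against 19.9% of all tested miRNAs. Both strands of miR-188 were lower in every treated sample, 2 of 10, against 22.6%. After TMM scaling the numbers were 4 and 2, against 19.3% and 24.0%.

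Neither strand of miR-362 passed the test. miR-362-5p had 6.41 ± 1.15 CPM untreated and 6.46 ± 0.681 CPM with 4-NP (SD, n = 3 each). On the log2 scale the fold change was -0.02 ± 0.20 (SE, edgeR adjusted p = 0.973), and the sign of this value changed in 8 of the 14 alternative fits. miR-362-3p had 5.21, 3.68 and 4.17 CPM untreated and 8.86, 4.94 and 5.30 CPM after 4-NP, and 4-NP sample 1 stood above the other two. Its log2 fold change was 0.51 ± 0.28 (SE, edgeR adjusted p = 0.237). miR-329-3p, which has the seed of miR-362-3p (ACACACC), had 20.6 ± 3.19 CPM untreated and 17.4 ± 1.25 CPM with 4-NP (SD, n = 3 each). For this strand the log2 fold change was -0.25 ± 0.12 (SE, edgeR adjusted p = 0.192). miR-511-5p, which has the seed of miR-532-5p (AUGCCUU), had at most 2 reads in any sample.

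**Figure D1:**
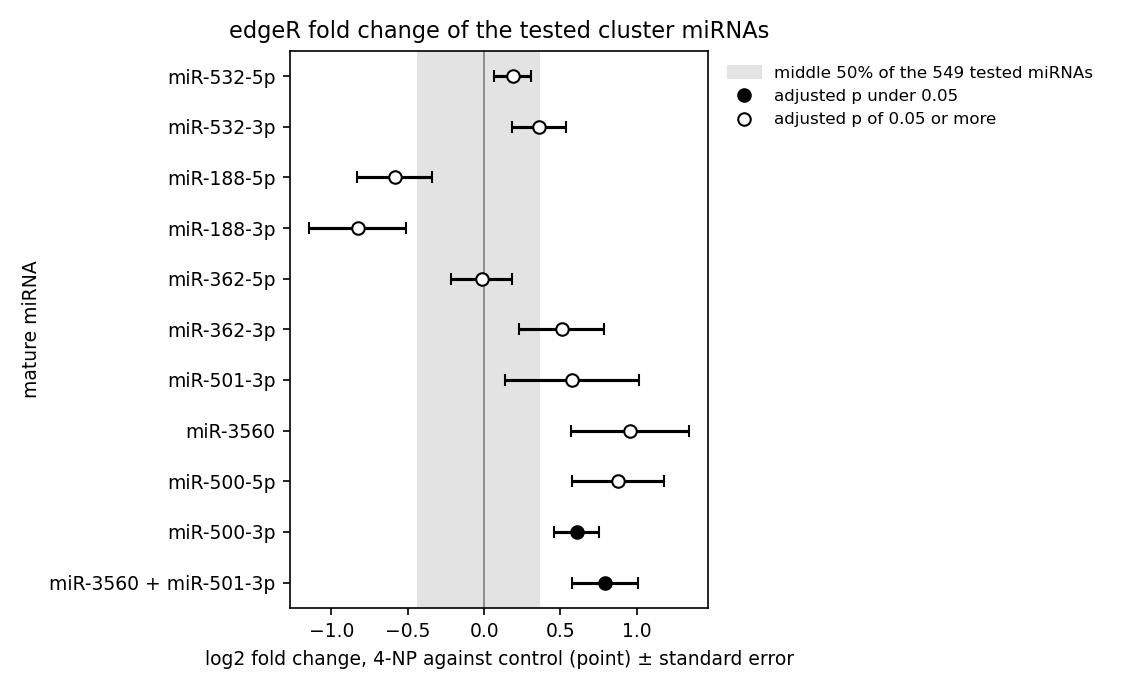
Log2 fold change of 4-NP against control from edgeR for the 10 tested cluster miRNAs and for the sum of miR-3560 and miR-501-3p, with bars of 1 standard error, filled points for an adjusted p under 0.05 and a grey band for the middle 50% of all 549 tested miRNAs (-0.43 to 0.36). miR-500-3p (0.61) and the sum (0.79) are filled, and the strands of miR-188 (-0.59 and -0.83) lie on the opposite side of 0 from miR-500-3p.

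The reads of miR-501 and miR-3560 were few. miR-501-3p had 33, 35 and 18 reads in control samples 1, 2 and 3 and 62, 18 and 42 reads in 4-NP samples 1, 2 and 3, and the groups overlapped (log2 fold change 0.58 ± 0.44, SE, edgeR adjusted p = 0.38). miR-3560, from the opposite strand, had 18, 25 and 46 reads untreated and 53, 52 and 60 reads after 4-NP. It was higher in every treated sample, with control sample 3 close to the treated samples, and its log2 fold change was 0.95 ± 0.39 (SE, edgeR adjusted p = 0.133). Without control sample 3 this was 1.55, with an adjusted p of 0.0148 in edgeR. miR-501-5p had 10, 6 and 9 reads untreated and 16, 5 and 18 reads after 4-NP, and it was not tested. Its 5 reads in 4-NP sample 2, or 0.250 CPM, have a 95% Wilson interval of 0.107 to 0.585 CPM.

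In the controls the sum of miR-3560 and miR-501-3p varied less than either name. After 4-NP the SD of the sum was 0.869 CPM, against 0.174 CPM for miR-3560 and 0.952 CPM for miR-501-3p. The sum had 2.18, 2.60 and 2.87 CPM in control samples 1, 2 and 3 and 5.20, 3.50 and 4.66 CPM in 4-NP samples 1, 2 and 3, without overlap. The means of the sum were 2.55 ± 0.350 CPM and 4.45 ± 0.869 CPM (SD, n = 3 each). When the sum took the place of both names in the edgeR fit, its log2 fold change was 0.79 ± 0.22 (SE, edgeR adjusted p = 0.0438). The reads of miR-3560 per 100 reads of miR-501-3p were 54.5, 71.4 and 256 in the controls and 85.5, 289 and 143 after 4-NP. The balance of these names thus differed more within a group than between the group means, 127 ± 111 and 172 ± 105 (SD, n = 3 each). The call of the sum was lost with DESeq2 (adjusted p = 0.0659) and without control sample 1 or 2 or 4-NP sample 1 or 3 (adjusted p of 0.135, 0.135, 0.0897 and 0.112 in edgeR), and it held without control sample 3 (0.0393) and without 4-NP sample 2 (0.0278).

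Ratios between members of the same sample do not depend on how the libraries were scaled. For each 100 reads of miR-532-5p there were 50.02, 49.0 and 55.1 reads of miR-500-3p in control samples 1, 2 and 3, and 69.8, 65.0 and 71.7 reads in 4-NP samples 1, 2 and 3. The same 100 reads went with 20.7, 19.3 and 26.5 reads of miR-188-5p in the controls and 15.1, 9.96 and 13.8 reads after 4-NP. Relative to miR-532-5p, the treated samples therefore lay entirely above the controls for miR-500-3p and entirely below them for miR-188-5p. Set directly against each other, miR-188-5p had 41.4, 39.3 and 48.1 reads per 100 reads of miR-500-3p in the controls and 21.7, 15.3 and 19.3 after 4-NP, or 42.9 ± 4.57 and 18.8 ± 3.20 (SD, n = 3 each). The control mean was 2.29 times that of the treated samples. These ratios were set side by side with the levels known, and no test was made of them.

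As shares of the cluster's reads, miR-500-3p held 26.0 ± 0.739% in the controls and 33.1 ± 0.290% with 4-NP (SD, n = 3 each), with 32.9 to 33.5% in all treated samples. miR-188-5p held 11.2 ± 1.50% and 6.22 ± 1.08% (SD, n = 3 each). miR-532-5p held 50.8 ± 1.96% and 48.2 ± 2.12% (SD, n = 3 each), and its groups overlapped. In share of the cluster's reads, miR-500 was thus higher after 4-NP, miR-188 was lower and miR-532 overlapped. Shares of the same sum depend on one another, so a share can move without a change in that member's level. miR-362-5p held 2.63 ± 0.348% and 2.18 ± 0.110% (SD, n = 3 each). Its share was lower in every treated sample, although its CPM overlapped between the groups.

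**Figure D2:**
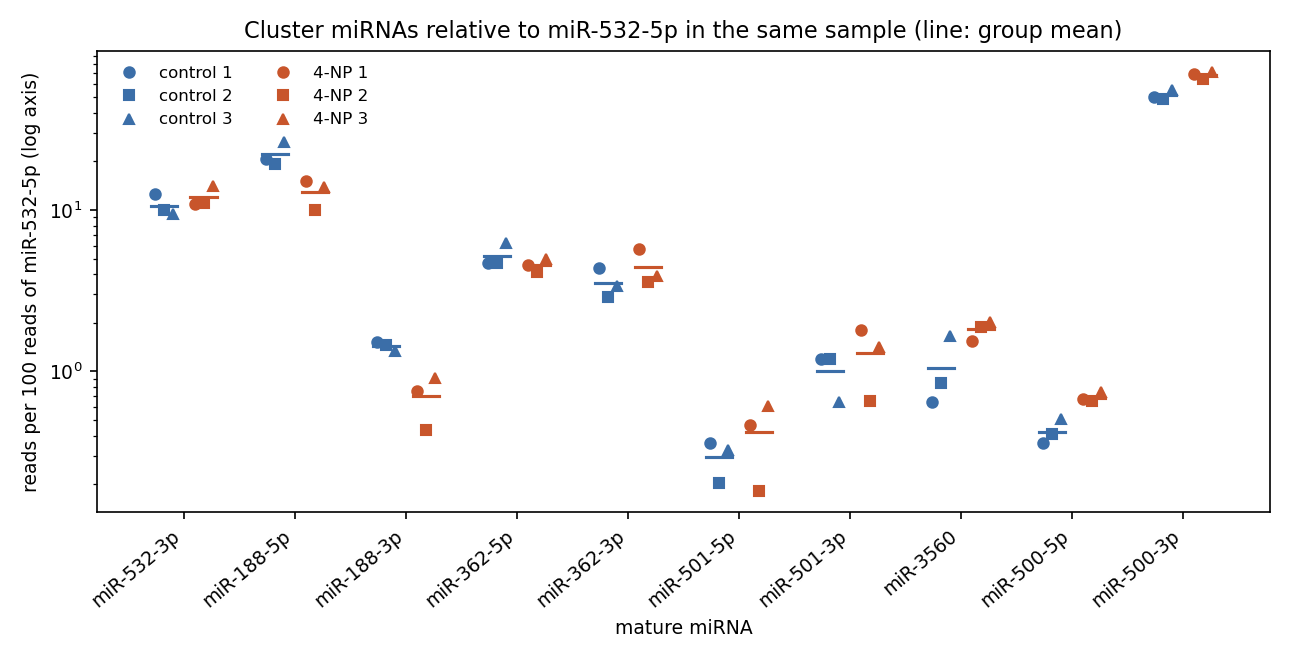
Reads of each other cluster miRNA per 100 reads of miR-532-5p of the same sample (log axis), for the 3 control samples (blue) and the 3 samples treated with 4-NP (orange), with a line at each group mean. miR-500-3p has 49.0 to 55.1 in the controls and 65.0 to 71.7 after 4-NP, and miR-188-5p has 19.3 to 26.5 and 9.96 to 15.1.

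The balance of the 5p and 3p strands was compared for the 5 hairpins whose strands each had a mean of 10 or more reads per sample. Reads came mostly from the 5p strand for miR-532 (90.4% of the hairpin's reads untreated and 89.3% after 4-NP, as means of 3 samples) and for miR-188 (93.8% and 94.9%). The 3p strand held most reads for miR-500, where the 5p strand had 0.817% and 0.991%, and for miR-501, where it had 23.7% and 24.1%. miR-362 was near balance, with 59.5% and 51.1% on the 5p strand. The dominant strand of miR-532, miR-188, miR-500 and miR-501 was therefore the same in both groups.

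The difference between the groups in the log2 ratio of 5p to 3p reads was 0.26 for miR-500, from -6.87 ± 0.165 to -6.61 ± 0.0540 (SD, n = 3 each, two-sided exact permutation p = 0.1, which is the lowest value possible with 3 samples in each group). It was 0.30 for miR-188, -0.49 for miR-362, 0.07 for miR-501 and -0.17 for miR-532, each with overlap between the groups and a two-sided exact permutation p of 0.3, 0.3, 1 and 0.4. With Benjamini-Hochberg adjustment over the 5 hairpins, the lowest adjusted p of these permutation tests was 0.5. The treated samples lay entirely above the controls for 1 of the 5 hairpins and entirely below for 0, against 18.5% and 12.7% of the 157 hairpins with enough reads in the table.

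**Figure D3:**
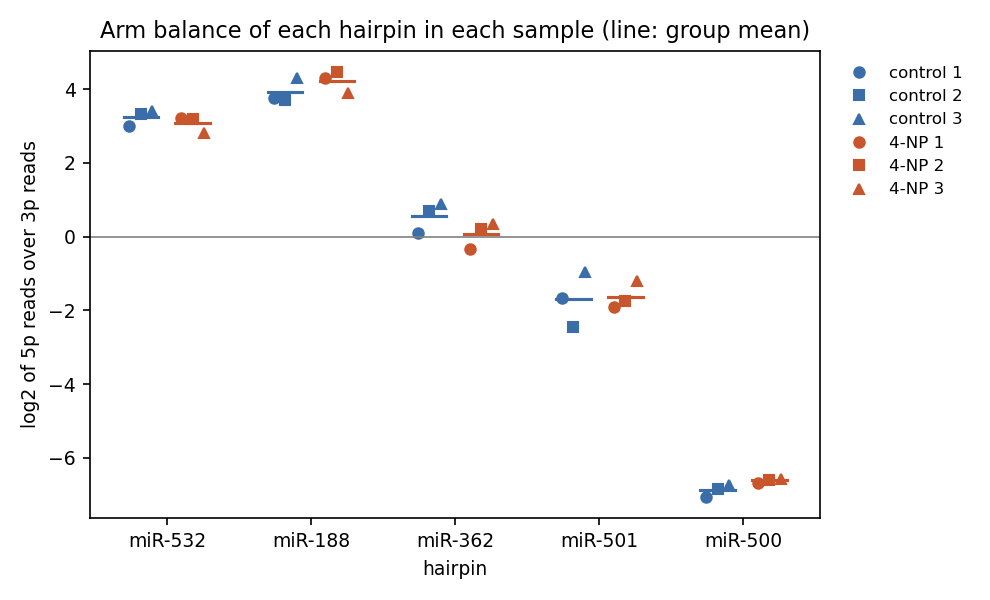
Log2 ratio of 5p to 3p reads (0.5 added to each count) for 5 hairpins of the cluster in the 3 control samples (blue) and the 3 samples treated with 4-NP (orange), with a line at each group mean and 0 for equal strands. miR-532 and miR-188 lie above 0 and miR-500 and miR-501 below 0 in every sample, and the groups overlap for all but miR-500.

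The deposited table also counts reads under the names of miRNA precursor families, which the choice of members did not use, and 2 of these families are named for members. A family can hold several hairpins, and in the table's own family names both miR-532 and miR-188 belong to mir-188, and both miR-500 and miR-501 to mir-500. The mir-188 precursor family had 29, 33 and 16 reads in control samples 1, 2 and 3 and 8, 8 and 11 reads in 4-NP samples 1, 2 and 3. All treated samples were below all controls, at 1.13 ± 0.368 CPM and 0.421 ± 0.0729 CPM (SD, n = 3 each). The log2 fold change was -1.41 ± 0.43 (SE, edgeR adjusted p = 0.0604 over the 738 other small RNAs with enough reads, of which 14.9% were called higher and 7.86% lower). It did not pass the test on the scaling of the mature miRNAs, on which the median log2 fold change of the 738 was 0.46. With TMM factors computed among those 738, where that median was 0.06, the log2 fold change was -1.80 (adjusted p = 0.027 in edgeR), and with DESeq2 it was -1.81 (adjusted p = 0.0243). The mir-500 precursor family had 14, 10 and 12 reads untreated and 8, 4 and 8 reads after 4-NP, too few to be tested. It was lower in the treated samples, whereas the mature miR-500-3p was higher.

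Of 89 other mature miRNAs whose genes lie only on chromosome X in GRCr8, 67 were tested. At an adjusted p under 0.05 edgeR called 2 of these higher and 21 lower in treated samples, against 7.47% and 12.8% of all tested miRNAs. The median log2 fold change of the 67 was -0.20, compared with 0.43 for the 10 tested cluster members. Values ran from -5.16 to 1.14 among the 67 and from -0.83 to 0.95 among the members. The difference between the lists was not tested. Among 455 known mature miRNAs outside the cluster with a mean of 20 or more reads per sample, the levels of miR-511-3p, miR-34b-5p and miR-361-5p followed the summed level of the cluster most closely. As a description over the 6 samples, which fall into 2 groups, miR-361-5p had 34.3, 36.6 and 37.8 CPM untreated and 59.6, 50.6 and 49.5 CPM after 4-NP. miR-34b-5p had 6.79, 8.83 and 10.0 CPM untreated and 22.6, 15.8 and 17.7 CPM after 4-NP. miR-511-3p had 1.32, 1.47 and 1.79 CPM and 3.34, 2.10 and 2.74 CPM. Likeness was measured as Pearson's r of log2 levels, which was 0.993 for miR-511-3p, 0.973 for miR-34b-5p and 0.962 for miR-361-5p, the 3 highest of 455 values. The samples of a group share their treatment, and all values share the depth of their library, so these values are a description.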

How the data were processed

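Per the labels and the study's methods, short RNA was cut from a gel, ligated to adapters with molecular identifiers, amplified and sequenced, and reads were checked with FastQC. The authors deposited 1 table of read counts for each small RNA and sample, without normalization. The submitters' processing notes name HISAT2 and DESeq2 without a role, and the miRNA database and genome build are not given in the sources used here. A second deposited value per sample, whose header names the molecular identifiers, is 1 for each known mature miRNA with reads and was not used.

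Counts of 734 mature miRNAs (673 known, 61 predicted by the authors) were tested with edgeR 4.0.16 in R 4.3.3 (filterByExpr, TMM, quasi-likelihood F test, no replicate block). Library size was the sum of mature counts. The 4 rows that give totals for genome regions and name no gene, which held 3.52 to 5.91% of the counted reads, were left out. Other small RNAs were tested with the effective library sizes of the mature miRNAs. Standard errors (SE) are the absolute log2 fold change over the square root of F. Replicates of a group differed beyond counting error (chi-square per degree of freedom of 168 to 1019). Alternatives were DESeq2 1.42.0, limma 3.58.1 on log2(CPM + 1), other scalings and filters, a replicate block, a pseudocount of 1 in place of 0.5 in the strand ratios, and the omission of each sample. The procedure was run on simulated counts whose changes were larger than those of the members. That run therefore does not show how often changes of the members' size are called. All members were described. Other miRNAs were named only for a shared seed or as the 3 most like the summed level. X-linked miRNAs were taken from the RefSeq gene table, in which 662 of 673 known names matched a gene. The members and lists were chosen with earlier results of these data known.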

Additional observations from a re-analysis of the deposited data

How the results depend on the processing

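The directions of the log2 fold changes of 9 of the 10 tested members were the same under all 14 alternatives. The exception was miR-362-5p, whose log2 fold change of -0.02 became 0.0201 with DESeq2, 0.0191 with RLE factors, 0.0199 without a filter on low counts, 0.00998 with total-count scaling and 0.0417 when miR-21-5p was left out of that scaling, and ran from -0.12 to 0.23 when each sample was omitted. The number of members called higher at an adjusted p under 0.05 in edgeR was 1 under the other scalings, tools and filters and 0 to 2 when each sample was omitted. With a replicate block it was 0, as miR-500-3p then had a log2 fold change of 0.61 and an adjusted p of 0.0513. At the study's thresholds 1 member was higher with a replicate block and 1 with scaling without miR-21-5p, and omission of a sample gave 0 to 2 higher and 0 to 1 lower. The sum of miR-3560 and miR-501-3p had 0.82 with DESeq2 (adjusted p = 0.0659), 0.78 with a replicate block (edgeR adjusted p = 0.0721) and 0.72 to 0.96 when each sample was omitted. The mir-188 precursor family passed the test with TMM factors of the other small RNAs (-1.80) and with DESeq2 (-1.81). The difference between the groups in the log2 strand ratio of miR-501 ran from -0.31 to 0.44 when each sample was omitted. The cause of these changes was not tested. Samples with the same number did not deviate together (r of -0.30, -0.26 and -0.02 across miRNAs), so the numbers were not taken as pairs. Depth limits miR-501-5p, miR-500-5p, miR-3560, miR-501-3p, miR-188-3p and the precursor families, which had at most 62 reads in any sample.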
